A study of Homo sapiens with 16 samples.

Results

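OCT1 peaks of MCF10CA1a cells treated with pterostilbene (PTS) were set beside those of vehicle-treated cells. MCF10CA1a is an invasive human breast cancer cell line, derived through xenografts of MCF10A breast epithelial cells that carry an activated Harvey-ras gene. Both groups are this 1 line and differ by treatment: PTS at 7 µM over 9 days, or the solvent ethanol. OCT1 ChIP had 3 biological replicates and 1 input library per treatment, and the deposited values pool the 3 replicates into 1 peak list per treatment. The labels call these lists enriched in PTS and enriched in Ctrl (vehicle). A region can have a peak in both, and whether the lists were filtered against each other was not tested. All OCT1 peaks with a pileup of 13 or more entered, where the pileup is the number of extended reads stacked at the summit of a peak. There were 16054 such peaks with PTS and 79559 with vehicle, together 95613 of the 118439 peaks in the 4 lists of the series, which also hold a DNMT3B ChIP. Peaks of both treatments that shared at least 1 base were joined, which gave 8038 paired regions with a pileup for each treatment. Since replicates are pooled, no replicate error and no test between treatments can be given, and the 95% intervals below cover counting error only. Peaks do not measure expression, so the identity of the cells was taken from the labels.

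OCT1, the product of *POU2F1*, is a widely expressed transcription factor with a bipartite POU domain. It is known for binding the octamer ATGCAAAT in promoters of small nuclear RNA and histone genes, and it also acts at enhancers with cofactors. In a ChIP experiment, a pileup counts fragments that the antibody recovered, so it reflects binding together with whatever else raises recovery or read mapping at a place. PTS is a dimethylated relative of resveratrol found in blueberries, and the study asked whether OCT1 binding at target enhancers changes with this compound.

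The sequences below are reference sequence on the plus strand of GRCh37/hg19, 5′ to 3′. The first 3 sets are centred on vehicle summits and have each CpG dinucleotide in capitals. The first set holds the enhancers of the genes in the study's OCT1 list that had a paired region, because they are the sites the study turns on. The *PITPNC1* stretch ends in a CA repeat, and the *TNNT2* stretch is a TG-rich repeat that holds no CpG.
*PITPNC1* chr17:65421278-65421378: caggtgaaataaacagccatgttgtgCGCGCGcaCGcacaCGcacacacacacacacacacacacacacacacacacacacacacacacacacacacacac
*DANT2* chrX:115004664-115004764: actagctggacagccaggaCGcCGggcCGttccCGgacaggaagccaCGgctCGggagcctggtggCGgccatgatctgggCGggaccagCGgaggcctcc
*LINC00910* chr17:41466136-41466236: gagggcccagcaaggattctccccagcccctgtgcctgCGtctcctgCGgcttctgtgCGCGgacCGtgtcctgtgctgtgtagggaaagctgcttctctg
*TNNT2* chr1:201316219-201316319: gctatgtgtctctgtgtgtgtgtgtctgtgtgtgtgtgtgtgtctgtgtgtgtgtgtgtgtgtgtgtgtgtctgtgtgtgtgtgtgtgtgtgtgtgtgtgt

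Active promoters had pileup ratios (PTS over vehicle) below those of other regions, and 3 of the strongest are shown for their many CpG dinucleotides.
*FANK1* chr10:127585233-127585333: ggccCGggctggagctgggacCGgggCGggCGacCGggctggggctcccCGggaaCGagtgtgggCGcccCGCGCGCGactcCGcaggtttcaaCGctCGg
*NBPF1* chr1:16939961-16940061: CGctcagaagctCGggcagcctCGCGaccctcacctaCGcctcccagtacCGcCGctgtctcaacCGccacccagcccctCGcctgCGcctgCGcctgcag
*SMCR8* chr17:18218940-18219040: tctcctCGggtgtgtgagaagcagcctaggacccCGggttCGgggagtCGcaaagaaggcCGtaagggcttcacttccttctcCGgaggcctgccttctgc

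The next 4 stretches come from the ends of the ratio range. The first and the third, of *CROCCP2* and *LOC388692*, had the highest ratios, and the second and the last, of another *CROCCP2* region and of *LOC105379514*, had ratios among the lowest. CpG dinucleotides are again in capitals, of which the stretches with the high ratio hold none and those with the low ratio hold 8 and 4. These were picked from 8 regions at each end, which are less clear-cut. The stretches of the 8 highest ratios hold 0 or 1 CpG each, and those of the 8 lowest hold 0 to 8, with 0 at *CCDC171* and 2 at *RAI1*. All are centred on vehicle summits, and the PTS summits of the 4 printed regions lie outside their stretches.
*CROCCP2* chr1:16943556-16943656: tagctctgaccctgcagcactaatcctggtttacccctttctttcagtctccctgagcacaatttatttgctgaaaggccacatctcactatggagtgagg
*CROCCP2* chr1:16945410-16945510: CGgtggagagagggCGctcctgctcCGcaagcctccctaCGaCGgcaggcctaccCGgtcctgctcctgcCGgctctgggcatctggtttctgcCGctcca
*LOC388692* chr1:149291462-149291562: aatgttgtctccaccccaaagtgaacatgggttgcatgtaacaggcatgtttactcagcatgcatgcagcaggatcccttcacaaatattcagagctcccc
*LOC105379514* chr4:190620473-190620573: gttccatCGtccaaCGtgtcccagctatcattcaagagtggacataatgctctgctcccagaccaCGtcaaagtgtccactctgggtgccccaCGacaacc

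The last pair are octamer-bearing paired regions, among those with the highest vehicle pileup outside repetitive states and chosen after their values were seen, centred on the octamer and not on the summit, with only the octamer in capitals. In the first of them the octamer lies on the other strand and therefore reads ATTTGCAT.
*LINC01262* chr4:190585591-190585651: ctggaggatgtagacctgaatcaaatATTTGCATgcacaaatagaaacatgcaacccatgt
*LOC646214* chr15:21905846-21905906: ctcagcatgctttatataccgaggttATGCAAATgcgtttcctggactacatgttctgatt

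The vehicle list held 4.96 times as many peaks as the PTS list at a pileup of 13 or more, and this difference lay almost wholly in weak peaks. With 15 reads at the summit, 1388 PTS peaks and 15808 vehicle peaks were listed. With 20 reads the numbers were 1342 and 2250, with 27 reads 109 and 107, and with 50 to 99 reads 238 and 220. The PTS list was most populated at 17 reads (2618 peaks), and the vehicle list at 15 reads (15808 peaks). Of the listed peaks, 78.5% with PTS and 91.1% with vehicle had a pileup under 20. The pooled depths were close, at 47700000 reads for PTS and 47200000 reads for vehicle. Both lists were called over the same background of 3.50 reads. A PTS read counts 0.99 in the scaled pileup, so the lowest PTS value at 13 or more was 13.8 (355 peaks), against 13 in vehicle (9371 peaks). Just below the limit stood 17 PTS peaks at 12.9 and 2628 vehicle peaks at 11 or 12. The lists therefore did not start at one level despite the common limit, and what set the length of each list was not tested.

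**Figure D1:**
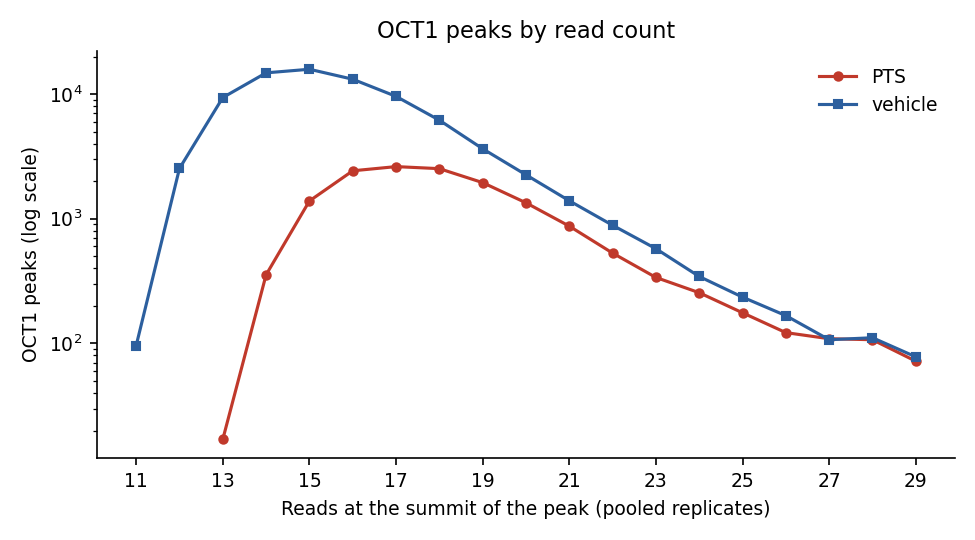
Number of OCT1 peaks (log scale) with each number of reads at the summit, from 11 to 29 reads, in the pooled PTS list (circles) and the pooled vehicle list (squares). The lists are far apart at 15 reads (1388 PTS and 15808 vehicle peaks) and meet at 27 reads (109 and 107).

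Strong OCT1 peaks were listed in both treatments, and weaker ones less often. The strong peaks lay mostly in repeats or had no chromatin state. At a pileup of 30 or more, repetitive states held 51.7% of PTS and 46.8% of vehicle peaks, and 36.8% of each list had no state. Enhancers held 4.41% and 4.54% of these peaks, and promoters 1.59% and 2.77%. At a pileup of 50 or more, 0 of 289 PTS peaks lacked a vehicle partner, which allows a share of up to 1.31% (Wilson interval), and 0 of 287 vehicle peaks lacked a PTS partner, which allows up to 1.32%. At 30 to under 50 it was 1 of 528 PTS peaks and 13 of 616 vehicle peaks. At 20 to under 30, 21.9% of PTS peaks (95% interval 20.3 to 23.5) and 59.9% of vehicle peaks (58.6 to 61.1) had no partner. At 13 to under 15 the shares were 61.5% (59.2 to 63.8) and 96.1% (95.9 to 96.4). Over all peaks, 7036 of 16054 PTS peaks (43.8%) and 70909 of 79559 vehicle peaks (89.1%) stood without a partner. A list holds only what the authors' calling kept, so a missing partner means a place that was not listed, not an unbound place.

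**Figure D2:**
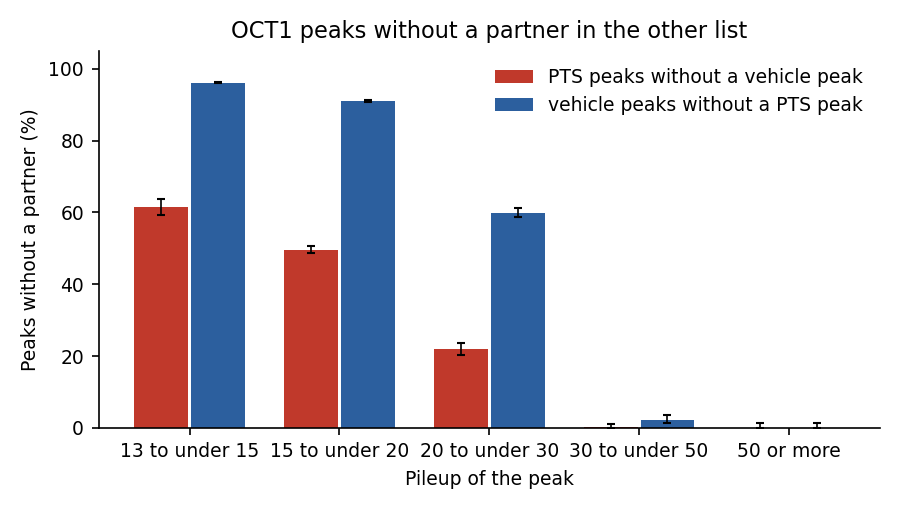
Share of OCT1 peaks (percent) without a peak of the other list that shares a base, by pileup of the peak, for PTS peaks (left bars) and vehicle peaks (right bars), with 95% Wilson intervals. Both shares are at most 2.11% from a pileup of 30 upward and 61.5% for PTS and 96.1% for vehicle at 13 to under 15.

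Among PTS peaks, those in promoters had a vehicle partner most often of the states that mark genes. No partner was found for 29.3% of 331 PTS peaks in active promoters (24.7 to 34.4), 30.1% of 309 in weak or poised promoters and 36.7% of 1167 in strong enhancers, against 43.8% of all PTS peaks. In heterochromatin it was 53.8% of 6814 PTS peaks (52.7 to 55). In the repetitive states it was 10.9% of 1048, where the median pileup was also higher (26.7 against 17.8 in active promoters). Among vehicle peaks this order did not hold: 91.8% of 3186 in active promoters and 91.8% of 37809 in heterochromatin had no PTS partner, against 89.1% of all vehicle peaks. PTS peaks without a partner had a median GC content of 50.2%, and those with one 51.7%. For vehicle peaks it was 53.7% without and 51.7% with a partner. Chromatin states here are those of normal human mammary epithelial cells (HMEC), which the study used for annotation, and they were not measured in MCF10CA1a.

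Promoters made up a smaller part of the PTS list than of the vehicle list. Active promoters held 2.06% of PTS peaks (1.85 to 2.29) and 4.00% of vehicle peaks, and all promoter states 3.64% and 6.77%. Enhancers held 16.1% of PTS peaks (15.5 to 16.7) and 16.8% of vehicle peaks (16.5 to 17), but 9.8% and 16% outside crowded windows (1 Mb with 50 or more vehicle peaks), and 14.2% (12.9 to 15.6) and 18.6% (17.6 to 19.6) at a pileup of 20 to under 30. At this strength, active promoters held 41 of 2642 PTS peaks (1.55%) and 329 of 6146 vehicle peaks (5.35%). Repetitive states held 14.5% of the PTS peaks and 6.67% of the vehicle peaks of this strength. The PTS list was also poorer in GC. Peaks with 60% GC or more within 100 bp of the summit were 9.14% of the PTS list and 17.2% of the vehicle list. Within one GC range the promoter shares were closer, at 12.2% of PTS and 12.8% of vehicle peaks with 60 to under 65% GC, and 31.9% and 43.7% at 65% or more. How far GC content accounts for these list shares was not tested.

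At the 8038 paired regions the pileups of both treatments lay close together. The median was 18.8 with PTS and 18 with vehicle, and the median ratio was 1.04, with quartiles of 0.895 and 1.17. PTS was higher at 4224 regions (52.6%) and vehicle at 3814 (47.4%). The ratio was between 0.8 and 1/0.8 at 74.6% of all regions, and at 89.1% of the 274 regions with a mean pileup (geometric) of 50 or more. At the strongest regions, 66 with a mean pileup of 100 or more, the median ratio was 1.01 and the quartiles were 0.98 and 1.05. Ratios of 1.5 or more were found at 173 regions (2.15%) and of 1/1.5 or less at 144 (1.79%). The exact interval of the ratio lay above 1 at 10 regions (0.124%) and below 1 at 14 regions (0.174%). These intervals are not adjusted for the number of regions. Of the regions whose interval excluded 1, 6 of the 10 and 12 of the 14 were in repetitive states or on sequences outside chromosomes 1 to 22 and X.

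The median ratio depended on where the lists start. It was 1.13 at regions with a mean pileup of 13 to under 15 and 1.06 at 15 to under 17, but 0.99 at 17 to under 20 and 0.953 at 20 to under 30. With 14 or more reads required in both lists, a setting chosen after seeing the data, the median was 1.03, and with a pileup of 20 or more in both it was 0.99. Without the scaling to equal depth it was 1.05. The medians above that of all regions were those of regions with a mean pileup under 17.

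**Figure D3:**
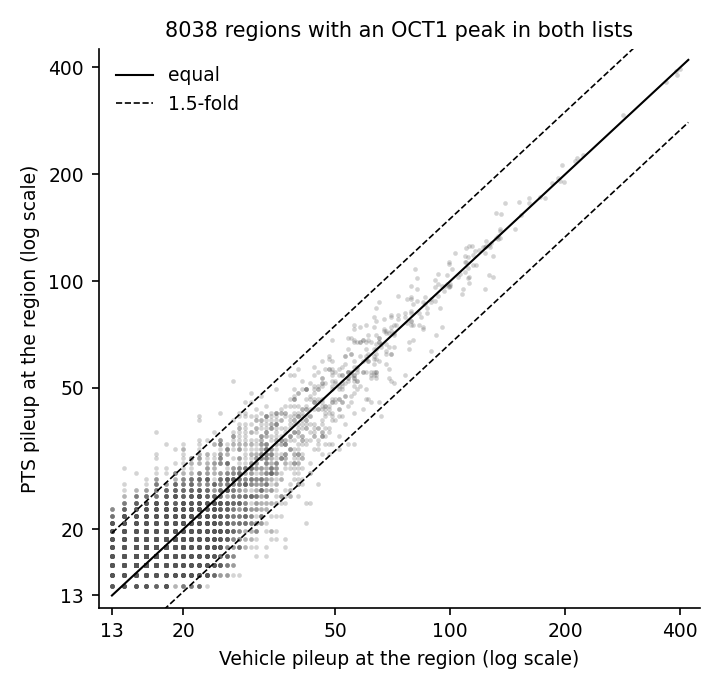
Pileup in PTS-treated cells against pileup in vehicle-treated cells (both log scales) at the 8038 regions with an OCT1 peak in both lists, 1 point a region, with a solid line at equal pileup and dashed lines at 1.5-fold. The points keep to the solid line at high pileup and spread past 1.5-fold mostly below a pileup of 50.

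Over all 8038 regions, promoters had the lowest median ratios of the chromatin states. At 254 regions in active promoters the median pileup was 17.8 with PTS and 19 with vehicle, with a median ratio of 0.934 (quartiles 0.841 and 1.05). PTS was higher at 87 of them and vehicle at 167. At 256 regions in weak or poised promoters the median ratio was 0.941, with PTS higher at 93 and vehicle at 163. This rank did not hold throughout. Without crowded windows of the genome, the median was 0.958 in active promoters, 0.99 in weak or poised promoters and 0.939 in weak transcription. In regions of a single state it was 0.934 in active promoters but 1.01 in weak or poised promoters, above the 0.99 of regions without a state. Strong enhancers (710 regions) and weak enhancers (1048 regions) both had a median ratio of 0.99. Insulators and Polycomb-repressed regions had 0.99 too. Weak transcription (1716 regions) had 1.04 and heterochromatin (2962 regions) 1.05, with PTS higher at 1620 and vehicle at 1342 regions. Few promoter regions passed 1.5-fold. Of them, 0 of 254 active promoters had a ratio of 1.5 or more (2.15% of all regions) and 7 had 1/1.5 or less (2.76%, against 1.79% of all regions). In no promoter region did the interval exclude 1, so the shift was seen over the class and not at single promoters.

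The ratio also went down as GC content went up, and promoters are rich in GC. The median ratio was 1.08 at 367 regions with under 40% GC, 1.06 at 1869 regions with 45 to under 50%, 0.989 at 1521 regions with 55 to under 60% and 0.937 at 333 regions with 65% or more. PTS was higher at 68.9% of the regions with the least GC and at 34.8% of those with the most. The number of CpG dinucleotides within 100 bp of the summit ran the same way, from a median ratio of 1.05 at 742 regions with 0 CpG to 0.934 at 169 regions with 16 or more. Promoters and other regions were then compared within GC ranges, a split chosen after seeing the data. At 50 to under 60% GC the median ratio was 0.948 at 172 promoter regions and 0.99 at 3919 other regions, and at 60% or more it was 0.934 at 237 and 0.971 at 775. Under 50% GC it was 1.05 at 32 promoter regions and 1.06 at 2902 others. The part of GC content in the promoter ratio was not tested beyond this split.

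**Figure D4:**
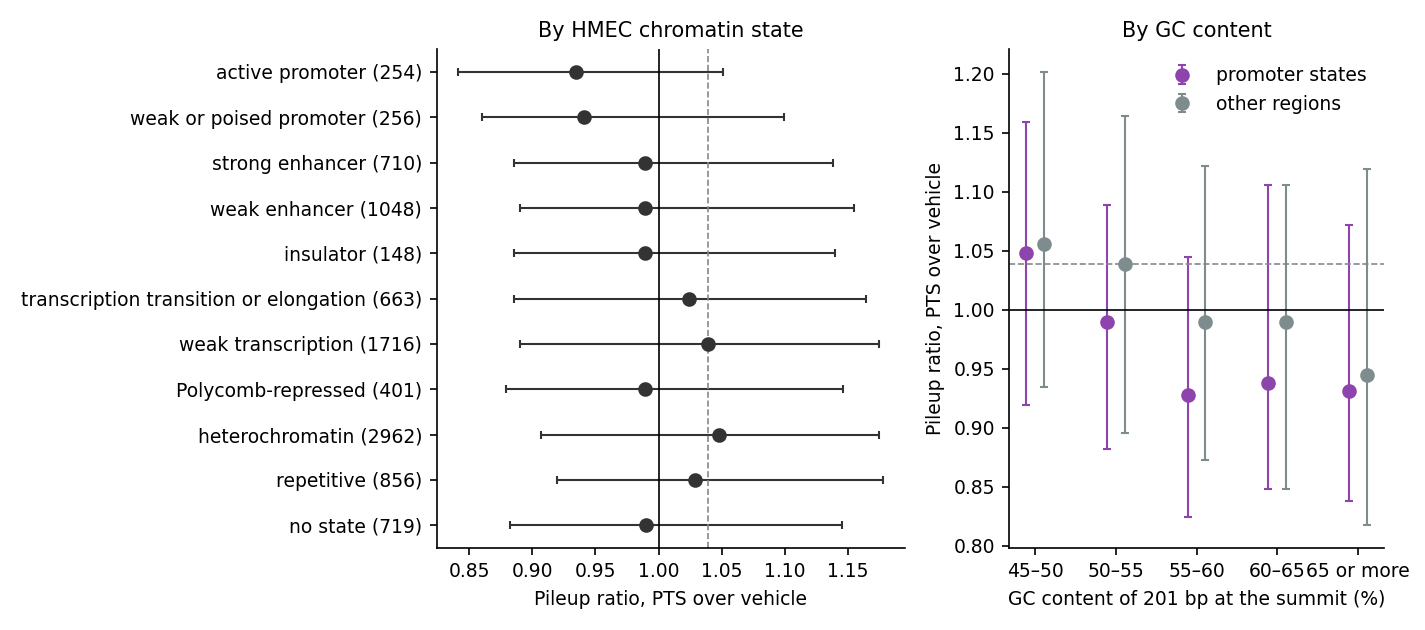
Median pileup ratio, PTS over vehicle, with quartiles as bars, by HMEC chromatin state (left, number of regions in brackets) and by GC content within 100 bp of the summit for promoter and other regions (right), with a solid line at 1 and a dashed line at the median of all regions (1.04). Active promoters have 0.934 and heterochromatin 1.05, and both groups of the right panel have medians above 1 under 50% GC and below 1 from 55% upward.

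The 8 active promoter regions with the highest mean pileup on chromosomes 1 to 22 and X, chosen after their values were seen but not by ratio, were all lower in PTS-treated cells. Their ratios ran from 0.68 to 0.936, and the interval of each included 1. At *FANK1*, a gene expressed mainly in testis, the pileup was 21.8 with PTS and 32 with vehicle (ratio 0.68, interval 0.377 to 1.21; chr10:127585060-127585639, in an intron). At *ASCC1*, a subunit of a transcriptional coactivator complex, it was 22.8 and 32 (chr10:73974611-73975231, in an intron). *SMCR8*, a partner of C9orf72 in autophagy, had 22.8 and 29 in a region that reaches its untranslated exon (chr17:18218539-18220137). That region joined 3 PTS peaks, with the highest PTS summit at 18219944 and the vehicle summit at 18218990. *NBPF1*, of the neuroblastoma breakpoint family, had 28.7 and 35 (chr1:16938974-16940642), and *LINC01115* had 26.7 and 34 (chr2:740052-740933). *NOTCH2NL*, a human-specific relative of *NOTCH2*, had 23.8 and 34 (ratio 0.699, interval 0.396 to 1.21). The other 2, assigned to *LOC645166* and *LOC105379514*, had 34.6 and 37, and 30.7 and 35. In the *NBPF1* region the PTS summit was at 16939313 and the vehicle summit at 16940011. In the *LOC105379514* region they were at 190642259 and 190643900. As at *SMCR8*, these ratios compare different places of a region. The *NBPF1*, *NOTCH2NL*, *FANK1* and *LOC645166* regions have near-identical copies elsewhere in the genome, so their reads may come from more than 1 place.

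Among paired promoter and enhancer regions, 8 were named by their vehicle pileup, so each has a peak in both lists by choice. *LINC00854* led, at 103 with PTS and 129 with vehicle (ratio 0.798, interval 0.61 to 1.04; chr17:41381457-41382570, in an intron of this noncoding gene). *DANT2* followed with 87.1 and 85, and *LINC00910* with 54.4 and 64. Of 3 regions assigned to *LOC654342* on chromosome 2, 2 had 54.4 and 62, and 47.5 and 53, while the third had 51.5 and 47. *LINC01410* had 46.5 and 51 on chromosome 9, and a region assigned to *PDE4DIP*, whose summit lies in a coding exon of *SEC22B*, had 41.6 and 49 on chromosome 1. PTS was lower at 6 of the 8, and the interval of each ratio included 1. In the *LINC01410* and *LOC654342* regions the PTS and vehicle summits lay apart, so their ratios compare different places. The *LINC00854*, *LINC00910* and *LINC01410* regions and 2 of *LOC654342* are also annotated to repetitive states, and 5 of the 8 have near-identical copies.

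The highest ratios were found where the vehicle pileup was close to the limit, and the lowest where the PTS pileup was. Outside repetitive states on chromosomes 1 to 22 and X, the 8 highest ratios came with vehicle pileups of 13 to 22. The 8 lowest there came with PTS pileups of 14.8 to 19.8. At *CROCCP2*, a pseudogene of rootletin on chromosome 1, the region chr1:16943515-16944181 had 37.6 with PTS and 17 with vehicle (ratio 2.21, interval 1.22 to 4.18). A second region of *CROCCP2*, chr1:16945276-16945631, had 19.8 and 35 (ratio 0.565, interval 0.309 to 1.01). The stretches printed above show that the first has a vehicle summit without CpG and the second a vehicle summit with 8. The PTS summits, at 16943992 and 16945405, lie outside these stretches. *LOC388692* had 29.7 and 14 (ratio 2.12, interval 1.09 to 4.33). *PDE4DIP*, which codes for the centrosome and Golgi protein myomegalin, had 2 enhancer regions with intervals above 1, at 32.7 and 17 (interval 1.04 to 3.68) and at 40.6 and 22 (interval 1.07 to 3.25). A further *PDE4DIP* region, in a repetitive state, had 23.8 and 43, with an interval below 1 (0.321 to 0.931). Over all 115 paired regions of *PDE4DIP* the median ratio was 1.02, with PTS higher at 60 and vehicle at 55. The regions assigned to *LOC441666*, to the channel gene *PANX1*, to *LINC00583* and to *SMARCA2*, an ATPase of SWI/SNF chromatin remodelers, had ratios of 1.75 to 1.91 with intervals that included 1. They lie 194665, 54469, 116271 and 20302 bp from these genes. Near-identical copies number 11 for the *LOC441666* region, 6 for that of *PANX1* and 1 for that of *LOC388692*, so their reads may come from more than 1 place.

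At the low end, *RAI1*, a dosage-sensitive nuclear protein gene on chromosome 17, had 17.8 with PTS and 33 with vehicle in an intronic strong enhancer (chr17:17614163-17615901; ratio 0.54, interval 0.286 to 0.987). *LOC105379514* had 18.8 and 34 (interval 0.298 to 0.997). These were the 2 regions outside repetitive states whose interval lay below 1. The *RAI1* region joined 3 PTS peaks and 1 vehicle peak. Its highest PTS summit was at 17615720 and the vehicle summit at 17614729, so the ratio compares different places of the region. A region with enhancer states shared by the introns of *CDH23*, a cadherin of sensory hair cells, and *VSIR*, an immune checkpoint gene, had 14.8 and 28 (ratio 0.53). Its summits also lay apart, at 73524860 with PTS and 73526053 with vehicle. Both *CCDC171* (14.8 and 27) and the glutamate transporter gene *SLC1A1* (14.8 and 26, in a poised promoter) lie on chromosome 9, as does *RIC1* (14.8 and 26). *NBEAP1* also had 14.8 and 26. Over the 8 highest, the GC content ran from 34.8 to 53.2% with a median of 44.5%, and over the 8 lowest from 48.8 to 66.7% with a median of 60%. Within 100 bp of their vehicle summits there were 13 CpG dinucleotides in all for the highest and 55 for the lowest. The regions were chosen by ratio, so these counts are a description.

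**Figure D5:**
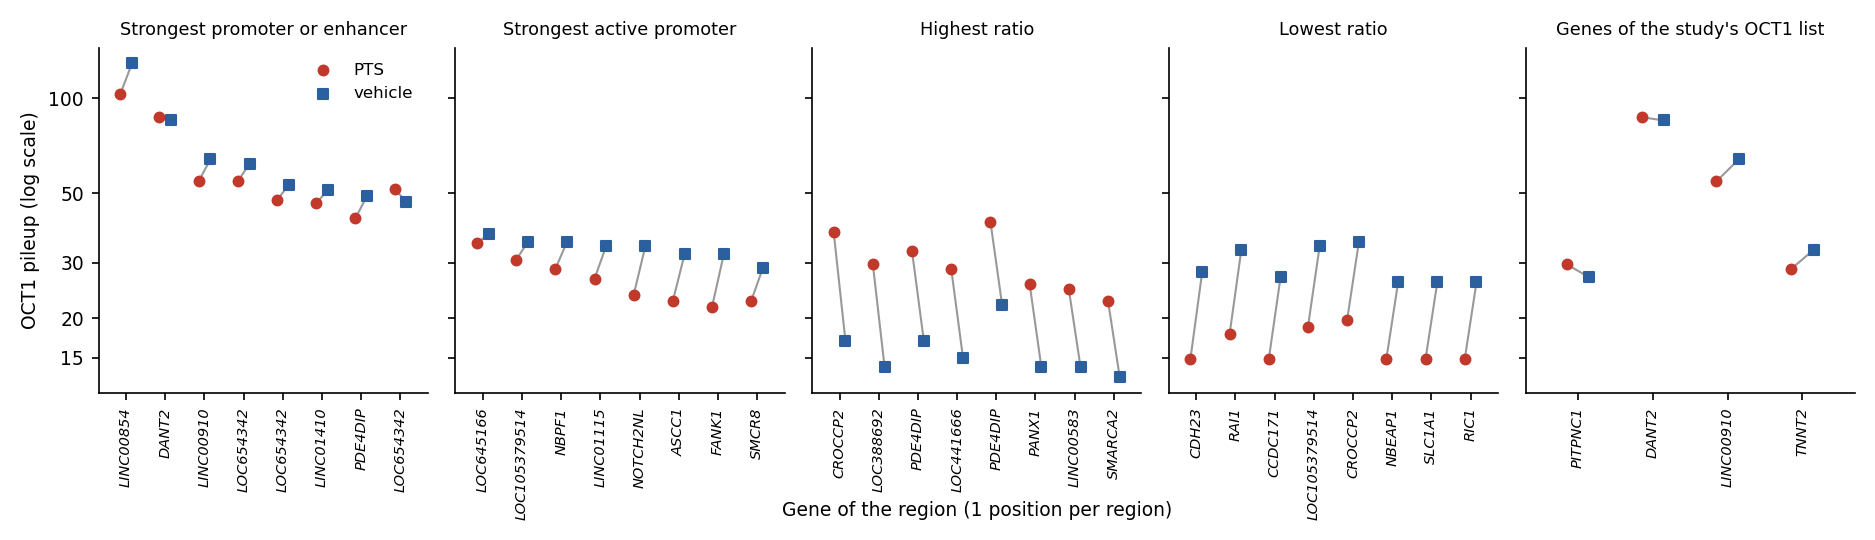
OCT1 pileup (log scale) in PTS-treated cells (circles, left) and vehicle-treated cells (squares, right), joined for each region, in 5 groups of regions named in the text, pooled over 3 replicates and so without error bars. PTS is below vehicle at all 8 active promoter regions and at 6 of the 8 strongest promoter or enhancer regions, while the groups of highest and lowest ratio were chosen for their difference.

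On chromosomes 1 to 22 and X, peaks with no partner of any pileup in the other list did not exceed a pileup of 34 outside repetitive states. There were 6759 of them in PTS-treated cells, 497 with a pileup of 20 or more, and 70242 in vehicle-treated cells, 3509 with 20 or more. The strongest in PTS-treated cells was 31.7, 68883 bp from *C1QTNF3-AMACR* on chromosome 5. A peak 82000 bp from *IL33*, an epithelial alarmin cytokine gene, and a peak in *SLC24A2*, a sodium-calcium exchanger gene, had 27.7 each, and a peak in *GLDC*, the glycine cleavage enzyme gene, had 26.7. In vehicle-treated cells the strongest lay near *BAGE2*, with 34. A 5S ribosomal RNA gene, *RNA5S6*, had 32 in a weak promoter 199 bp away. *KMT2C*, a histone H3 lysine 4 methyltransferase gene, and *DMRT3* had 30 each, and *SRGAP2-AS1* had 29 in a poised promoter.

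Of the 6 genes in the study's OCT1 list, which the study chose on these samples, 4 had a paired region. The interval of the ratio included 1 at each of these 4 regions. The paper reports that the enhancer of each gene held an OCT1 peak reduced with PTS. It shows this in browser tracks at *PITPNC1* and *LINC00910*. The paper called differential peaks with MACS2, whereas the ratios here compare summit pileups of listed peaks, so the measures differ. The 6 genes had 4 PTS and 15 vehicle peaks in all, of which *PITPNC1* had 1 and 7. Vehicle peaks without a PTS partner, 89.1% of the whole vehicle list, have no ratio, so the 4 ratios do not cover them. *PITPNC1*, a lipid transfer protein gene, had a pileup of 29.7 with PTS and 27 with vehicle at the intronic weak enhancer chr17:65421180-65421514 (ratio 1.10, interval 0.632 to 1.92). The noncoding gene *LINC00910* had 54.4 and 64 at chr17:41465923-41466516 in an exon (ratio 0.85, interval 0.582 to 1.24). *DANT2* had 87.1 and 85 at chrX:115004433-115005280 (ratio 1.02, interval 0.752 to 1.40), and this sequence has 14 near-identical copies. Near *TNNT2*, which codes for cardiac troponin T, the pileup was 28.7 and 33 at chr1:201316110-201316449, 11687 bp from the gene (ratio 0.87, interval 0.509 to 1.48). PTS was higher at *PITPNC1* and *DANT2*, and vehicle at *LINC00910* and *TNNT2*. *ZP4*, an egg coat protein gene, and *LOC100130331* share 1 vehicle peak in a weak enhancer (26, chr1:238047159-238047458), and no PTS peak of any pileup was listed there. *MAML2*, a Notch coactivator gene, had 1 weak peak in each list, 15.8 with PTS and 15 with vehicle, at different places of the gene.

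Among small nuclear RNA and histone genes, the known OCT1 targets, nearly all paired regions were of the U1 family. Small nuclear RNA genes of the U1 family had 28 PTS and 77 vehicle peaks and 22 paired regions with a median ratio of 0.989 (PTS higher at 7, vehicle at 15), against 1.04 over all regions. *RNVU1-18*, a variant U1 gene, had the strongest, with 43.5 and 41 at chr1:149222181-149223940, 118 bp from the gene (ratio 1.06, interval 0.678 to 1.67). The regions of *RNU1-1* (22.8 and 26), *RNU1-2* (19.8 and 26) and *RNVU1-17* (17.8 and 25) had ratios of 0.875, 0.761 and 0.712, all with intervals that included 1. These genes are near-identical copies of each other, and the regions of *RNU1-1*, *RNU1-2* and *RNVU1-17* lie 3908 to 11422 bp from the gene. Histone genes had 12 PTS and 49 vehicle peaks, with a single paired region, in *H2AFY*, which codes for macroH2A1 (17.8 and 15). *H2AFY* held 9 of these PTS peaks and 30 of the vehicle peaks, and the other histone genes have no ratio.

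Of 21 genes for POU factors and OCT1 cofactors, 6 had a PTS peak and 13 a vehicle peak. Their 18 paired regions had a median ratio of 1.08, with PTS higher at 10 and vehicle at 8. *SNAPC3*, a subunit of the complex that OCT1 helps to recruit to small nuclear RNA promoters, had 14 of these regions. Its promoter region had 15.8 with PTS and 24 with vehicle (ratio 0.66, interval 0.327 to 1.29), while the median over its regions was 1.11. *POU2F1*, the gene of OCT1 itself, had 1 paired region in an intron, with 15.8 and 18, and *POU1F1*, a pituitary factor, had 18.8 and 20 at its strongest region.

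Over all genes, 21.2% of those with a vehicle peak also had a PTS peak and 11.1% had a paired region. Of 15 Notch pathway genes, 8 had PTS peaks and 13 vehicle peaks, 4 were paired, and their 15 paired regions had a median ratio of 0.934, with PTS higher at 7 and vehicle at 8. Of these 15 regions, 12 were of *NOTCH2NL*. The receptor gene *NOTCH2* had 21.8 and 15, the coactivator gene *MAML1* 15.8 and 13, and the ligand gene *JAG2* 19.8 and 24. Of 24 Ras and MAPK pathway genes, 3 had PTS peaks, 21 vehicle peaks and 2 a paired region. *HRAS*, the gene whose active form transformed the parent line, had 22.8 and 25 over its promoter and enhancer states (chr11:531257-535083; ratio 0.91, interval 0.494 to 1.67). *SPRY4*, an inhibitor of this pathway, had 4 paired regions with a median ratio of 0.966.

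Of 22 genes for epithelial-mesenchymal transition and invasion, 3 (*SNAI1*, *MMP2* and *TGFBR2*) had 4 PTS peaks and 19 had 58 vehicle peaks, and 0 of these 19 had a paired region, against 11.1% of all genes with a vehicle peak. Of 20 cell cycle genes, 3 (*CCND1*, *CCNE2* and *CDK1*) had 5 PTS peaks and 12 had 31 vehicle peaks, and 0 of these 12 had a paired region. Whether these counts differ from the share of all genes was not tested. Of 14 genes of the antioxidant and xenobiotic response, *AHRR* (27.7 and 27) and *ARNT* (18.8 and 15), repressor and partner of the aryl hydrocarbon receptor, were paired. Of 13 genes for DNA and H3K36 methylation, 4 had PTS peaks and 9 vehicle peaks. The H3K36 methyltransferase gene *NSD1* had 5 paired regions with ratios of 1.12 to 1.36, and *ASH1L*, another such enzyme, had 1 with 15.8 and 19. Of 12 mammary basal epithelium genes, 5 had PTS and 11 vehicle peaks, and *MYLK*, a myosin light chain kinase gene, had 4 paired regions with a median ratio of 1.12. The interval of every ratio named for a member of these gene lists included 1. The lists were small beside the 3335 genes with a PTS peak and 14861 with a vehicle peak. Of the genes with a PTS peak, 94.3% also had a vehicle peak.

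Ratios differed between the 112 genes with 15 or more paired regions each. *CDH23* on chromosome 10 had 207, with 328 PTS and 422 vehicle peaks and a median ratio of 0.989. The genes that follow were chosen after their values were seen. Low medians were found on chromosomes 10 and 17 at *CHST3*, a chondroitin sulfotransferase gene (50 regions, 0.9, PTS higher at 14), and *SLC5A10* (41 regions, 0.9, PTS higher at 14). *PEMT*, a phosphatidylcholine synthesis gene (60 regions, 0.921, PTS higher at 18), and *RAI1* (70 regions, 0.943, PTS higher at 24) were others on chromosome 17. Medians above that of all regions were found on chromosome 9 at *KDM4C*, an H3K9 demethylase gene (83 regions, 1.06, PTS higher at 53), and *ADAMTSL1* (56 regions, 1.09, PTS higher at 34). *ANKRD26P1* on chromosome 16, with median pileups of 67.3 with PTS and 61 with vehicle, had PTS higher at 33 of 39 regions (median 1.09). Its median GC content was 36.3%, against 59.7% at *SLC5A10*, 54% at *CHST3* and 50.7% at *KDM4C*.

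Whole chromosomes had a like order. The median ratio was 0.989 over 687 regions of chromosome 17 and 746 of chromosome 10. It was 1.04 over 2078 of chromosome 9, 1.05 over 972 of chromosome 1 and 1.06 over 902 of chromosome 5. Of 4 GC ranges, PTS was higher less often on both chromosomes 10 and 17 than on both chromosomes 1 and 5 in 3 and not in the lowest. At 50 to under 55% GC, PTS was higher at 46.8% of the regions on chromosome 17 and 43.1% on chromosome 10, against 56% on chromosome 1 and 59.2% on chromosome 5. At 60% or more the shares were 29.1% and 31.7% on chromosomes 17 and 10, against 39.9% and 55.4% on chromosomes 1 and 5. At 55 to under 60% GC, PTS was higher at 31.2% of 199 regions on chromosome 17 and 39.4% of 193 on chromosome 10, but at 52.2% of 209 on chromosome 1 and 54.9% of 237 on chromosome 5. At 45 to under 50% GC the shares were 63.9% on chromosome 17, 50.7% on chromosome 10, 62.3% on chromosome 1 and 71.7% on chromosome 5. The part of the chromosome in these ratios was not tested.

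OCT1 peaks of both lists were crowded into parts of the genome. In 363 windows of 1 Mb the whole vehicle list had 50 or more peaks, and 234 of these windows lie on chromosomes 1, 3, 5 and 9. They held 84.7% of the PTS peaks, 65% of the vehicle peaks and 87.1% of the paired regions. In these windows there were 13596 PTS and 51749 vehicle peaks, and elsewhere 2458 and 27810, so the vehicle list was 3.81 times as long inside and 11.3 times outside. By chromosome the excess ran from 2.66 times on chromosome 10 (1234 PTS and 3279 vehicle peaks) to 28.7 times on chromosome 19 (65 and 1865). Median ratios of paired regions were close inside and outside, at 1.04 over 7000 and 1.03 over 1038 regions.

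Medians by distance from the assigned gene lay between 1.01 and 1.05. The median was 1.04 at 3866 regions that touch a gene and 1.01 at 186 regions within 1000 bp of one. It was 1.03 at 802 regions at over 1000 to 10000 bp, 1.04 at 2089 regions at over 10000 to 100000 bp and 1.05 at 772 regions farther away. PTS was higher at 51.7% of the regions that touch a gene and at 58.2% of the farthest, whose median GC content was 47.3%, against 53.2% in the regions that touch a gene. With a pileup of 20 or more in both lists, the median of regions that touch a gene over that of the farthest was 0.959, against 0.992 at the common limit.

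The octamer was rare in the OCT1 peaks. ATGCAAAT on either strand was found in 184 of 15115 PTS peaks on chromosomes 1 to 22 and X (1.22%, interval 1.05 to 1.40) and in 694 of 78464 vehicle peaks (0.884%, interval 0.821 to 0.952). In windows of the same length 5 kb to each side it was found in 2.36% for PTS and 2.30% for vehicle. These flanks were not matched for GC content. Among peaks with a pileup of 30 or more it was 17 of 516 PTS peaks (3.29%, with 5.37% of flanks) and 22 of 571 vehicle peaks (3.85%, with 6.02% of flanks). The 169 paired regions with an octamer had a median ratio of 1.03, and 7150 without one had 1.04. PTS was higher at 86 and vehicle at 83 of those with an octamer. Of the octamer regions shown above, the one assigned to *LINC01262* had 20.8 with PTS and 29 with vehicle, and the one near *LOC646214* had 26.7 with PTS and 24 with vehicle. The *LOC646214* region joined 2 PTS peaks, with the highest PTS summit at 21903993 and the vehicle summit at 21905808. At *LINC01262* the PTS summit was at 190585331 and the vehicle summit at 190585591. Both PTS summits lie outside the printed stretches, so the PTS pileups were not taken at these octamers.

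Summits of strong pairs stood at almost the same base. Most OCT1 peaks with a pileup of 30 or more lay in repetitive states or had no state. In regions with 1 peak in each list and a vehicle pileup of 30 or more, 675 in number, the summits were a median of 12 bp apart and 70.5% were within 50 bp. For 4458 such regions with a vehicle pileup under 20 the median was 110 bp and 25.8% were within 50 bp. PTS peaks were shorter than their vehicle partners, with a median length of 290 bp with PTS and 376 bp with vehicle over 6945 regions. At a vehicle pileup of 30 or more the medians were 486 and 543 bp, with a median length ratio of 0.967. The lists start at different levels, and the part of this in the lengths was not tested.

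DNMT3B ChIP of the same cells was paired by the same rules and had a median over all promoter states close to that of all its regions. At 2400 paired DNMT3B regions the median ratio was 0.987, and it was 0.991 at 74 promoter regions, against 0.94 at 441 OCT1 promoter regions. Its 40 active promoter regions had 0.97, with PTS higher at 17. Regions rich in GC were low for DNMT3B, with 0.965 at 60 to under 65% GC (PTS higher at 37.9%, and at 40.4% for OCT1) and 0.95 at 65% or more. The DNMT3B regions poorest in GC were low as well, with 0.967 under 40% GC, against 1.08 for OCT1. The highest DNMT3B median of the GC ranges was 1.03, at 50 to under 55%, so it did not fall steadily with GC content as for OCT1. No partner was found for 36.9% of DNMT3B peaks with PTS and 83.2% with vehicle, so the longer vehicle list was seen with both antibodies. At 59 promoter regions with a peak in all 4 lists, the median ratio was 0.879 for OCT1 and 1.02 for DNMT3B, and PTS was higher at 13 for OCT1 and 31 for DNMT3B. The difference between the antibodies has no replicate error and was not tested.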

How the data were processed

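The authors cut adapters with cutadapt and aligned reads with BWA to GRCh37/hg19. Duplicates and reads of low quality were dropped, and the paper states that MACS2 called peaks over pooled inputs (200 bp fragments, effective genome size 2700000000). Genes were added with ChIPseeker, and the 15 chromatin states came from a ChromHMM track of HMEC. Versions are not given in the sources used here. The deposited pileup is a signal of the 3 pooled replicates at a summit, scaled by the authors to equal depth. The deposited fold enrichment, a ratio of the pileup over its background, served only to compute the background and, from it, the pooled depth. That background came to 3.50 at every peak of both OCT1 lists, so the fold values show no local input signal. How the inputs entered the calls was not tested. Depth per replicate is unknown. The deposited distance from the gene is in bp. Columns of −log10 p-values and q-values set a list against its background, hold no comparison of the treatments and were not used.

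Lines of 1 peak were joined, every listed state was counted, and split chromosome X labels were rejoined (43 PTS and 561 vehicle peaks). Where a region held several peaks of a list, the highest pileup was taken, so the pileups of a region can come from summits that lie apart. Ratios have 95% Clopper-Pearson intervals of reads in both treatments, and shares have Wilson intervals. GC content and CpG were counted within 100 bp of the vehicle summit (for lists, of each peak's own summit). Positions in genes come from GENCODE lifted to GRCh37, and near-identical copies (at least 90% identity over 80% of the length) from minimap2 2.31-r1302. Scripts ran in python 3.11.15 with pysam 0.24.0 for sequence, scipy 1.17.1 for intervals, pandas 2.3.3 with numpy 2.4.6 for tables and matplotlib 3.10.9 for plots. They were tested on simulated lists with planted pairs and ratios.

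Named regions were the 8 strongest promoter or enhancer regions by vehicle pileup and the 8 highest and 8 lowest ratios in states other than the repetitive ones. To these came up to 8 strongest peaks of each list without a partner, the genes of the study's OCT1 list and, from each gene list, at most 4 members by vehicle pileup. Members, lists and rules were chosen with earlier results of these data known. The inputs and raw reads were not analysed here. One octamer region chosen by the same rule is not reported here.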

Additional observations from a re-analysis of the deposited data

How the results depend on the processing

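No paired analysis was possible because the deposited lists pool the 3 replicates of a treatment, and for the same reason no replicate could be left out. The median ratio of paired regions was 1.04. It was 1.02 with a pileup minimum of 15 and 0.99 with a minimum of 20, 1.05 in whole reads, 1.04 with 1 peak in each list and 1.03 with 14 or more reads in both lists, the last chosen after seeing the data. The median of active promoters over that of all regions was 0.899, and 0.895 to 0.946 under the 6 alternatives run for it, of which 14 or more reads and the GC range of 50 to under 60% were chosen after seeing the data. The median of regions that touch a gene over that of regions beyond 100000 bp was 0.992, and 0.959 with a minimum of 20. With a partner allowed within 200 bp, 37.5% of PTS peaks and 87.2% of vehicle peaks had none, against 43.8% and 89.1%. Regions of 1.5-fold or more were 173 higher and 144 lower in PTS-treated cells. Regions lower with PTS were the more numerous with 14 or more reads in both lists (127 higher and 144 lower) and with a minimum of 15 (90 and 99). The counts were 23 and 21 with a minimum of 20, 28 and 23 without crowded windows, and 10 and 14 where the exact interval had to exclude 1. The low median of weak or poised promoters (0.941) was 0.99 without crowded windows and 1.01 in regions of a single state. Of 66 class medians under alternatives, 16 moved beyond the binomial interval of the median. Depth limits single weak regions: at the *SPRY4* region, with 16.8 for PTS and 20 for vehicle, the interval of the ratio ran from 0.414 to 1.69, so a 1.5-fold difference was not detectable there. The median shift with the minimum goes with the different start of the lists, and its cause was not tested.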
